A study of Mus musculus with 6 samples.

Results

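The muscleblind-like (MBNL) family, MBNL1, MBNL2 and MBNL3, was examined in human kidney cells with and without induced Rbfox1. Members were chosen by gene symbol, which gave 3 of 58870 annotated genes and 42 of 208621 annotated isoforms, 24 of MBNL1, 6 of MBNL2 and 12 of MBNL3. MBNL proteins are zinc-finger RNA-binding proteins that promote or repress the inclusion of alternative exons depending on where they bind, and they also act on mRNA localization and decay. MBNL1 and MBNL2 are known for their part in myotonic dystrophy, in which expanded CUG or CCUG repeats bind the proteins and withdraw them from their target transcripts. MBNL3 is the member least studied and is known from regenerating muscle and placenta, and transcripts of all members are themselves alternatively spliced.

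Transcripts were measured by RNA-seq in the 77-5 clone of T-REx-293 cells, in which doxycycline (Dox) induces Rbfox1 expression and which carries a mouse Ntrk2 minigene in a bacterial artificial chromosome. T-REx-293 derives from HEK293, a human embryonic kidney line, and both the minigene and the inducible Rbfox1 were present in all 6 samples. No Dox samples were untreated (n = 3) and Dox samples received doxycycline for 48 h (n = 3), at 0.5 mg/ml according to the labels, whereas the legends of the study give micrograms. All samples came from this single clone, and the labels name the mouse as organism although the transcripts quantified are human. No sample received doxycycline without inducible Rbfox1, so effects of doxycycline and of Rbfox1 cannot be told apart.

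Total expected counts, the read counts that RSEM assigns to isoforms, ranged from 59822964 to 65774104 per sample. RBFOX1 rose from 7.53 ± 0.79 to 188.3 ± 1.8 TPM, a transcript level scaled to length and library size (SD, n = 3), the direction the labels imply, and RBFOX2 fell from 48.3 ± 1.6 to 17.0 ± 0.9 TPM. Of 7 HEK293 markers, 6 reached a mean of 1 TPM, with a summed level between 1086 and 1100 TPM without Dox and between 974.8 and 1011 TPM with Dox. None of 6 skeletal and heart muscle markers reached 1 TPM (summed TPM between 0.46 and 0.73 without Dox and between 0.51 and 0.69 with Dox), and none was at 0 in every sample. Of 5 fibroblast and endothelial markers 2 reached 1 TPM (summed TPM between 8.50 and 8.87 without Dox and between 11.4 and 11.9 with Dox). Of these, LUM, an extracellular matrix proteoglycan, rose from 3.68 ± 0.61 to 6.50 ± 0.22 TPM. COL1A1 (4.55 ± 0.58 and 4.60 ± 0.13 TPM) did not pass the gene test, nor did DCN, and PECAM1 and CDH5 were too low to be tested. The part of these marker shifts in the results was not tested, and in bulk RNA fewer cells of a type and less RNA per cell cannot be told apart. Nothing in the labels says that replicates were separate cultures, so p-values measure the spread between these samples, which may be technical.

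To determine whether the family changed at the gene level, expected counts were summed over isoforms. MBNL1 and MBNL2 rose and MBNL3 fell, to 1.07, 1.31 and 0.93 times the No Dox level in normalized counts. All 3 members passed the edgeR test, where 51.4% of 18264 tested genes did, 24.9% as higher and 26.5% as lower in Dox.

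MBNL1 (ENSG00000152601.17), the member with the highest level in these cells, measured 42.23, 43.50 and 42.28 TPM in No Dox and 49.79, 52.01 and 52.79 TPM in Dox. Every Dox sample was above every No Dox sample on this scale, and the TPM of 50.3% of all tested genes likewise did not overlap between groups. Its expected counts changed less, from 7665 ± 73.8 to 8425 ± 507 (SD, n = 3), a log2 fold change of 0.10 ± 0.03 (SE; 95% interval 0.04 to 0.15) with an edgeR adjusted p of 0.0066. When only isoforms of at least 4000 bases were summed, a choice made after seeing the data, the log2 fold change was 0.049 with an edgeR adjusted p of 0.16 and the call was lost. MBNL1-AS1, the annotated antisense transcript of the locus, stood at 2.24 ± 0.23 TPM in No Dox and 2.43 ± 0.15 TPM in Dox and did not pass (log2 fold change 0.15, edgeR adjusted p = 0.13). No source used here states whether counting used strand, and whether reads were shared between MBNL1 and MBNL1-AS1 was not tested.

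MBNL2 (ENSG00000139793.18), the member most tied to brain splicing in mouse knockouts, measured 6.93, 6.72 and 7.03 TPM in No Dox and 8.86, 7.99 and 8.20 TPM in Dox, with no overlap between groups. Its expected counts rose from 878 ± 24.0 to 1181 ± 84.5, a 1.31-fold change and a log2 fold change of 0.39 ± 0.05 (SE; 95% interval 0.29 to 0.49; edgeR adjusted p = 4.4e-06). This call held under all 16 alternatives, with log2 fold changes of 0.24 to 0.45.

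MBNL3 (ENSG00000076770.14), which antagonizes muscle differentiation in mouse cell culture, measured 7.11, 7.43 and 7.39 TPM in No Dox and 6.20, 6.45 and 6.52 TPM in Dox. The groups did not overlap in TPM, whereas the expected counts did, at 2355, 2266 and 2350 against 2211, 2072 and 2369. The lower TPM in Dox was not seen in isoforms of at least 4000 bases, at 4.99 ± 0.15 TPM in No Dox and 5.19 ± 0.14 TPM in Dox. These isoforms held 96.1 ± 0.6% of the gene's expected counts in No Dox and 97.8 ± 0.6% in Dox. The log2 fold change of counts was -0.11 ± 0.04 (SE; 95% interval -0.18 to -0.03; edgeR adjusted p = 0.018). The call was lost without No Dox replicate 3 (-0.099, adjusted p = 0.066), without Dox replicate 1 (-0.085, adjusted p = 0.085), without Dox replicate 2 (-0.10, adjusted p = 0.063) and with scaling by library size only (-0.059, adjusted p = 0.17).

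**Figure D1:**
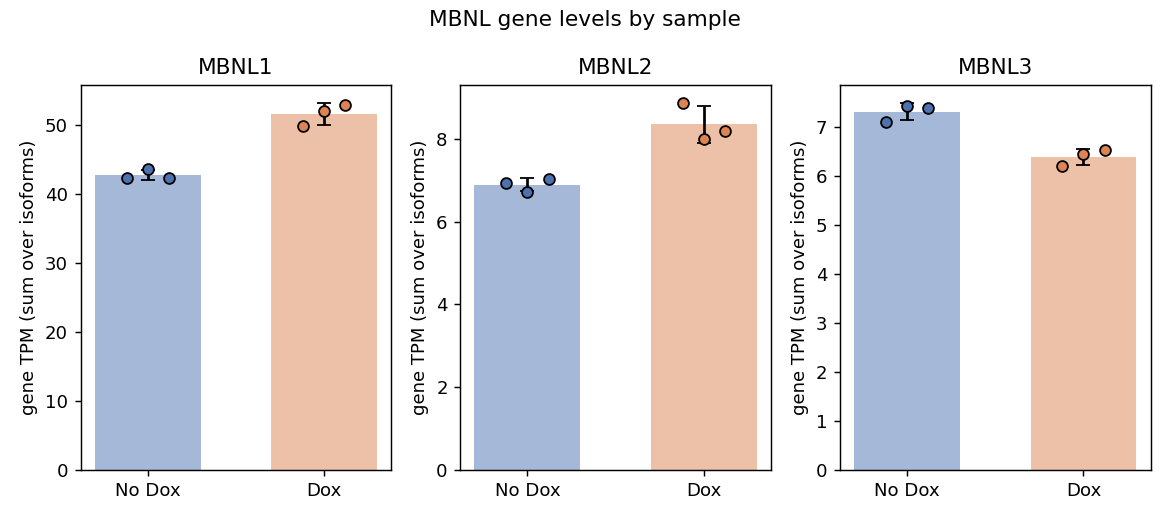
Gene TPM, summed over isoforms, of MBNL1, MBNL2 and MBNL3 in No Dox and Dox; points are samples, bars are means from 0 and error bars are SD (n = 3), with a separate vertical scale for each gene. MBNL1 moved from 42.7 to 51.5 TPM and MBNL2 from 6.89 to 8.35 TPM, and MBNL3 from 7.31 to 6.39 TPM, and the groups did not overlap for any member, as for 50.3% of all tested genes. In isoforms of at least 4000 bases alone, not drawn here, MBNL3 was not lower in Dox (4.99 against 5.19 TPM).

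In TPM, a level per transcript length that can be compared between genes, MBNL1 stood far above the other members in both conditions. MBNL3 was slightly above MBNL2 in No Dox (7.31 ± 0.17 against 6.89 ± 0.16 TPM) and below it in Dox (6.39 ± 0.17 against 8.35 ± 0.45 TPM), with no overlap of samples in either condition. The same order was found for isoforms of at least 4000 bases alone, at 4.99 ± 0.15 against 4.12 ± 0.23 TPM in No Dox and 5.19 ± 0.14 against 5.76 ± 0.14 TPM in Dox. Summed family TPM was 56.27, 57.65 and 56.70 in No Dox and 64.85, 66.45 and 67.51 in Dox. MBNL1-212, an isoform of 989 bases, contributed 0 TPM in No Dox and 6.09 ± 1.34 TPM in Dox. Isoforms of at least 4000 bases summed to 40.9 ± 1.3 TPM in No Dox and 44.7 ± 0.6 TPM in Dox. MBNL1 made up 75.0 ± 0.4% of the sum over all isoforms in No Dox and 77.7 ± 0.8% in Dox, and MBNL3 12.9 ± 0.2% and 9.64 ± 0.07%. An exact two-sided permutation test gave p = 0.1 for each of these shares, the smallest that 3 against 3 samples allow. The MBNL2 share was 12.1 ± 0.4% in No Dox and 12.6 ± 0.9% in Dox (exact two-sided permutation p = 0.6). Among isoforms of at least 4000 bases the MBNL1 share moved the other way, from 77.7 ± 0.2% to 75.5 ± 0.2%. There the MBNL2 share went from 10.1 ± 0.3% to 12.9 ± 0.4%, and the MBNL3 share from 12.19 ± 0.05% to 11.6 ± 0.2%.

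Next, the 42 isoforms were examined individually. Of these, 10 were at 0 in all samples, 20 had enough reads to be tested and 12 had reads but were not tested. With limma-voom, 6 tested isoforms rose, 4 fell and 10 did not pass, where 12.6% of 72438 isoforms passed, 6.19% as higher and 6.44% as lower in Dox. The isoforms that rose were 4 of MBNL1, 1 of MBNL2 and 1 of MBNL3, and those that fell were 3 of MBNL1 and 1 of MBNL3. An isoform was tested only if it had reads in enough samples of either group, so the tested isoforms are not a random share of the 42.

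**Figure D2:**
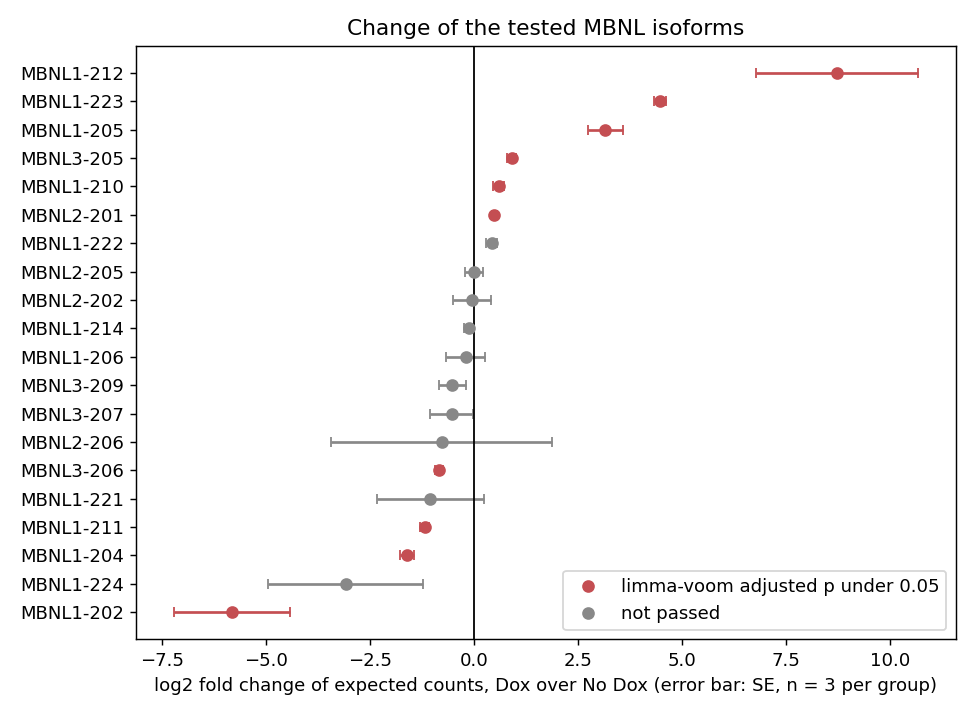
Log2 fold change (Dox over No Dox) of expected counts for the 20 tested MBNL isoforms, with SE as error bars (n = 3 per group); red marks a limma-voom adjusted p under 0.05 and grey the others. MBNL1-223 stands at 4.47 with a narrow error, whereas MBNL1-212 and MBNL1-202, which were at or near 0 in a group, have wide errors and their fitted values are not bounds.

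To ask whether isoforms changed relative to the rest of their gene, usage was tested with limma diffSplice. MBNL1 (limma diffSplice adjusted p = 3.4e-15) and MBNL3 (limma diffSplice adjusted p = 3.8e-09) changed usage, whereas MBNL2 did not pass (limma diffSplice adjusted p = 0.52; 0.030 with a replicate block), and 27.5% of 12328 genes tested with diffSplice were called. With diffSpliceDGE of edgeR, which called 9.91% of the same genes, MBNL1 (adjusted p = 8.4e-20) and MBNL3 (adjusted p = 3.0e-05) were again called and MBNL2 (adjusted p = 1.0) was not. At the level of single isoforms 7 were called by diffSplice, 3 as higher and 4 as lower, 5 in MBNL1 and 2 in MBNL3, where 11.0% of 66898 isoforms were called. How an isoform's share changed was described with IsoPct, the percent of its gene's TPM that an isoform takes up.

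The largest shifts in MBNL1 were found in 3 isoforms of similar length. MBNL1-223 (ENST00000498502.5, 5258 bases) made up 2.14, 1.58 and 2.01% of MBNL1 in No Dox and 38.32, 32.91 and 34.39% in Dox. The isoform was thus minor in every No Dox sample and the most abundant MBNL1 isoform in every Dox sample. Its expected counts rose from 208.86, 149.39 and 188.86 to 4367.24, 3625.17 and 4212.02, a 22.2-fold change (log2 fold change 4.47 ± 0.14, SE; limma-voom adjusted p = 2.9e-05; usage adjusted p = 1.1e-15). Across 13 alternatives the log2 fold change lay between 3.40 and 4.56 and the call held in each.

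MBNL1-204 (ENST00000324210.9, 5465 bases) moved the other way, from 29.34, 32.25 and 31.40% to 8.62, 6.16 and 11.16% of MBNL1. Its counts fell by 1.61 ± 0.17 on the log2 scale (SE; limma-voom adjusted p = 0.0021; usage adjusted p = 4.3e-07). MBNL1-211 (ENST00000463374.5, 5092 bases) made up 31.24, 31.27 and 34.67% in No Dox and 10.51, 13.24 and 12.20% in Dox. Its counts fell by 1.18 ± 0.10 on the log2 scale (SE; limma-voom adjusted p = 0.00081; usage adjusted p = 0.00016). For both isoforms all Dox samples were below all No Dox samples by more than the spread within either group.

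MBNL1-204 and MBNL1-211 together held 63.4 ± 2.7% of MBNL1 in No Dox and 20.6 ± 2.4% in Dox. When MBNL1-223 was added to these, the summed expected counts were 6247 ± 139 in No Dox and 6456 ± 674 in Dox, and the groups overlapped (exact two-sided permutation p = 0.7). With 3 against 3 samples this does not show that the sum was unchanged, and these counts were not scaled to depth. The sum with MBNL1-223 was not taken in IsoPct. All MBNL1 isoforms of at least 4000 bases, which include these 3, held 74.6 ± 1.7% by IsoPct in No Dox and 65.5 ± 1.8% in Dox. By length, MBNL1-223 was 207 bases shorter than MBNL1-204 and 166 bases longer than MBNL1-211. The exon content of these isoforms was not analysed here. RSEM divides reads between isoforms that share sequence, so these values rest on the reads that tell the isoforms apart.

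MBNL1-205 (ENST00000355460.6, 5941 bases) also rose, from 52.00, 42.07 and 110.79 to 748.08, 551.22 and 444.78 expected counts (log2 fold change 3.16 ± 0.42, SE; limma-voom adjusted p = 0.0048; usage adjusted p = 5.0e-06). It remained a small part of the gene, at 0.47, 0.39 and 1.04% in No Dox and 5.79, 4.41 and 3.20% in Dox, with no overlap. MBNL1-202 (ENST00000282488.11), at 6458 bases the longest MBNL1 isoform, had 289.95, 207.39 and 206.03 expected counts in No Dox and 12.35, 12.70 and 0 in Dox. Its counts fell (log2 fold change -5.81 ± 1.40, SE; limma-voom adjusted p = 0.042), but leaving out any sample other than Dox replicate 3 ended the call (adjusted p between 0.053 and 0.15). The log2 fold change was -4.15 without Dox replicate 3, the sample at 0, and -6.63 and -6.58 without Dox replicates 1 and 2. MBNL1-202 passed the filter on low counts through the No Dox samples, where it was high, so its p-values serve as description only.

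Short MBNL1 isoforms took up more of the gene's TPM than of its reads, since TPM is per length. MBNL1-212 (ENST00000464596.5, 989 bases) had 0 expected counts in all No Dox samples and 168.27, 214.17 and 268.68 in Dox. With the No Dox group set to a floor of 3 counts in all, it was 218-fold higher in Dox. The 0 is an RSEM estimate among isoforms that share sequence, so this fold is not a bound. MBNL1-212 reached 9.29, 12.23 and 13.77% of MBNL1 in Dox. Its limma-voom adjusted p was 0.033, and leaving out any sample other than Dox replicate 1 ended the call (adjusted p between 0.053 and 0.16), whereas DESeq2 gave an adjusted p of 1.5e-15. The isoform passed the filter on low counts only through the Dox samples, where it was high, so these p-values serve as description only.

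MBNL1-210 (ENST00000461436.1, 1681 bases) made up 7.68, 6.69 and 8.87% in No Dox and 9.21, 10.48 and 9.69% in Dox. Its counts rose by a log2 fold change of 0.60 ± 0.14 (SE; limma-voom adjusted p = 0.034), a call that ended when any sample other than Dox replicate 1 was left out (adjusted p between 0.054 and 0.11) or when the filter on low counts was dropped (adjusted p = 0.062). MBNL1-214 (ENST00000466565.1, 1096 bases) measured 14.02, 12.45 and 13.72% in No Dox and 9.96, 11.13 and 10.19% in Dox. Its shares did not overlap, but its expected counts did, and the log2 fold change of -0.11 ± 0.12 (SE) did not pass (limma-voom adjusted p = 0.61).

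MBNL1-224 (ENST00000545754.5, 5147 bases) had 338.79, 218.66 and 102.36 expected counts in No Dox and 0.02, 257.48 and 123.23 in Dox. The groups overlapped and Dox replicate 1 alone was near 0. The isoform was called as lower in usage (diffSplice adjusted p = 0.029), but its log2 fold change of -3.08 ± 1.86 (SE) did not pass (limma-voom adjusted p = 0.34) and was -0.16 without Dox replicate 1.

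**Figure D3:**
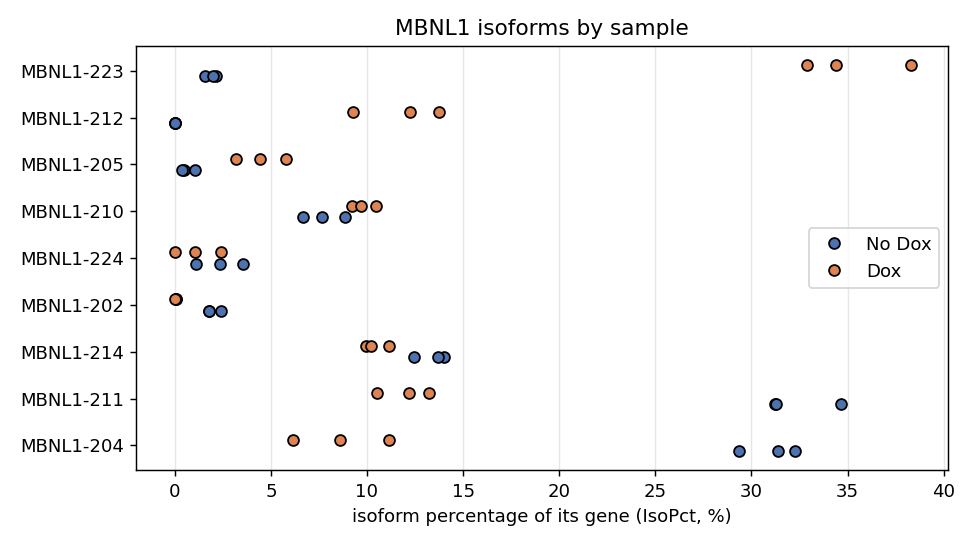
Percent of MBNL1 TPM (IsoPct) held by each of the 9 named MBNL1 isoforms; each point is a sample, blue No Dox and orange Dox. MBNL1-223 lies between 1.58 and 2.14% in No Dox and between 32.91 and 38.32% in Dox, and MBNL1-204 and MBNL1-211 fall to 13.24% or less.

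For MBNL2, the main isoform rose as the gene did, without a change of usage called in the fit without a replicate block. MBNL2-201 (ENST00000343600.8, 4596 bases) had 757.61, 783.39 and 746.30 expected counts in No Dox and 1159.97, 1005.36 and 1090.86 in Dox, with no overlap. Its counts rose by a log2 fold change of 0.50 ± 0.07 (SE; limma-voom adjusted p = 0.0048), a 1.41-fold change, and its usage did not pass (diffSplice adjusted p = 0.45). It held 54.37, 61.51 and 55.04% of MBNL2 TPM in No Dox and 65.74, 68.35 and 65.93% in Dox.

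MBNL2-205 (ENST00000449284.1), a short isoform of 581 bases, held 35.50, 30.57 and 41.11% in No Dox and 30.92, 28.75 and 29.13% in Dox. The groups overlapped, and its log2 fold change of 0.00 ± 0.22 (SE; 95% interval -0.52 to 0.51) did not pass (limma-voom adjusted p = 0.99). By reads the picture differed, as MBNL2-205 had 5.0 ± 1.0% of the gene's expected counts in No Dox and 3.7 ± 0.2% in Dox, and MBNL2-201 had 86.9 ± 1.6% and 91.9 ± 1.2%.

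In MBNL3 the isoforms MBNL3-205 and MBNL3-206 changed in opposite directions. MBNL3-205 (ENST00000370857.7, 8760 bases) had 609.21, 810.47 and 635.87 expected counts in No Dox and 1346.62, 1188.85 and 1328.94 in Dox. It held 21.95, 29.65 and 22.94% of MBNL3 in No Dox and 56.09, 51.54 and 51.91% in Dox, so that it went from the second to the first isoform of the gene in all samples. Its counts rose by a log2 fold change of 0.91 ± 0.11 (SE; limma-voom adjusted p = 0.0039; usage adjusted p = 4.2e-09).

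MBNL3-206 (ENST00000394311.6, 11263 bases) had 1637.60, 1369.87 and 1632.77 expected counts in No Dox and 817.31, 823.01 and 999.43 in Dox. It went from 45.68, 38.80 and 45.61% to 26.35, 27.62 and 30.22% of the gene, with no overlap, and its counts fell by 0.83 ± 0.10 on the log2 scale (SE; limma-voom adjusted p = 0.0030; usage adjusted p = 7.2e-09). Both calls held under all 13 alternatives. The TPM of MBNL3-205 over that of MBNL3-206 was 0.48, 0.76 and 0.50 in No Dox and 2.12, 1.87 and 1.72 in Dox. Their summed expected counts were 2232 ± 46.0 in No Dox and 2168 ± 158 in Dox, and the groups overlapped (exact two-sided permutation p = 0.6). With 3 against 3 samples this does not show that the sum was unchanged. By IsoPct the same pair held 68.2 ± 0.5% of the gene in No Dox and 81.2 ± 1.8% in Dox.

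The short MBNL3 isoforms rested on few reads. MBNL3-209 (ENST00000442191.5, 840 bases) had 22.29, 29.98 and 23.85 expected counts in No Dox and 16.01, 14.24 and 23.26 in Dox (log2 fold change -0.51 ± 0.32, SE; limma-voom adjusted p = 0.36). MBNL3-207 (ENST00000421707.1, 946 bases) had between 10.60 and 23.83 expected counts in No Dox and between 9.43 and 14.26 in Dox (log2 fold change -0.53 ± 0.52, SE; limma-voom adjusted p = 0.56). Neither passed. MBNL3-208 (ENST00000436215.5, 891 bases) had 4.31, 14.24 and 23.25 expected counts in No Dox and 0 in every Dox sample. With the Dox group set to a floor of 3 counts in all, it was 13.9-fold lower in Dox. This fold is not a bound either, as the 0 is an RSEM estimate. MBNL3-208 had too few reads to be tested. It nevertheless held 1.87, 6.28 and 10.11% of the gene's TPM in No Dox.

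**Figure D4:**
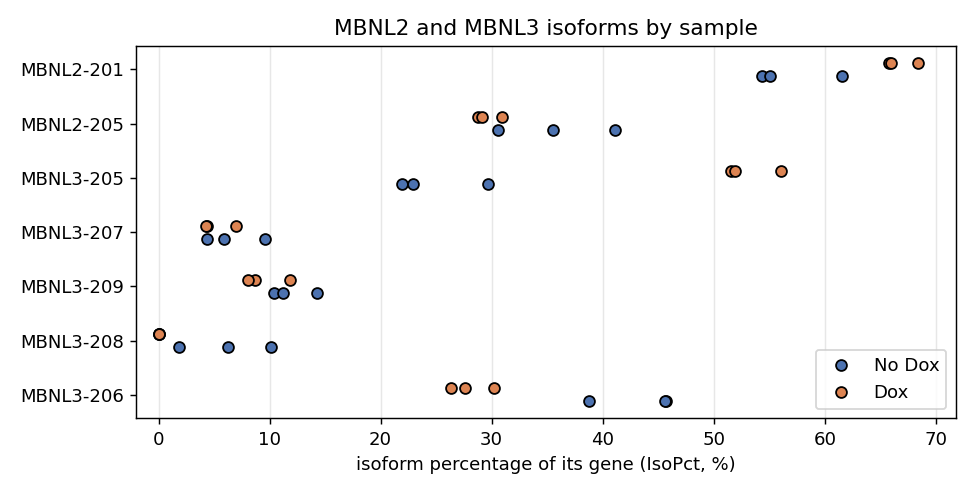
Percent of the gene's TPM (IsoPct) held by the named isoforms of MBNL2 and MBNL3; each point is a sample, blue No Dox and orange Dox. MBNL3-205 lies between 21.95 and 29.65% in No Dox and between 51.54 and 56.09% in Dox, and MBNL3-206 moves from 38.80 to 45.68% in No Dox to between 26.35 and 30.22% in Dox.

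The 26 isoforms not named here each had a mean IsoPct of at most 4.40% in either group, and none passed the isoform or the usage test, although DESeq2 called MBNL1-222 (log2 fold change 0.43, DESeq2 adjusted p = 0.031). Isoforms of at least 4000 bases were 12 of MBNL1, 4 of MBNL2 and 3 of MBNL3, and their summed IsoPct was 74.6 ± 1.7% in No Dox and 65.5 ± 1.8% in Dox for MBNL1. The corresponding values were 59.9 ± 4.3% and 69.1 ± 2.2% for MBNL2 and 68.2 ± 0.5% and 81.2 ± 1.8% for MBNL3. The groups did not overlap for any member, and the sum was lower in Dox for MBNL1 and higher for MBNL2 and MBNL3 (exact two-sided permutation p = 0.1 each, the smallest possible). The same sum did not overlap in 29.6% of the 6246 tested genes with reads on isoforms both above and below that length. By share of expected counts the same sums differed by -3.06, 3.93 and 1.70 percentage points (Dox minus No Dox) for MBNL1, MBNL2 and MBNL3.

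To examine the genes on which MBNL proteins act, a list of 41 splicing targets known from muscle, heart and brain was used. At the gene level 35 were tested, of which 14 rose, 6 fell and 15 did not pass, a share called of 57.1% against 51.4% of all tested genes. Their median log2 fold change was 0.01, against 0.00 over all tested genes. The largest changes were those of LDB3, a Z-disc protein (log2 fold change 1.29 ± 0.24, SE), RYR1, the calcium release channel of skeletal muscle (0.79 ± 0.29), and ATP2A1, the calcium pump of fast muscle (0.77 ± 0.09). LDB3 (0.12 ± 0.03 to 0.33 ± 0.02 TPM) and RYR1 (0.21 ± 0.08 to 0.28 ± 0.03 TPM) were scarcely expressed in both groups. DMD, which encodes dystrophin, rose from 7.00 ± 0.28 to 10.13 ± 0.30 TPM (0.47 ± 0.04), KCNMA1, a calcium-activated potassium channel, rose by 0.43 ± 0.09, and ADD3, a membrane skeleton adducin, fell by 0.29 ± 0.03 on the log2 scale.

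By usage 19 of 33 tested targets (57.6%) were called by diffSplice, against 27.5% of all tested genes. With diffSpliceDGE 13 of the 33 were called, all of which were among the 19, against 9.91% of all tested genes. An isoform moved by at least 10 percentage points in 15 of the 19 listed genes, and in 35.3% of all 3386 genes that diffSplice called. Genes of both lists were picked with earlier results of these data known, and no test set the list against other genes. PHKA1-201, of the phosphorylase kinase regulatory subunit, went from 68.8 ± 1.0% to 34.7 ± 2.2% of its gene, FN1-202, of fibronectin, from 38.5 ± 4.2% to 8.79 ± 0.71%, and ITGA6-202, of integrin alpha 6, from 56.5 ± 2.5% to 28.2 ± 2.4% (SD, n = 3). INSR-202, of the insulin receptor whose alternative exon is a known MBNL target, went from 90.6 ± 5.4% to 68.9 ± 4.4%, and ADD1-206, of alpha adducin, from 46.4 ± 2.7% to 26.8 ± 0.7%. Each of these 5 genes passed both usage tests. Whether these changes follow from the MBNL isoforms was not tested, since Rbfox1 was induced and RBFOX2 fell in the same samples.

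**Figure D5:**
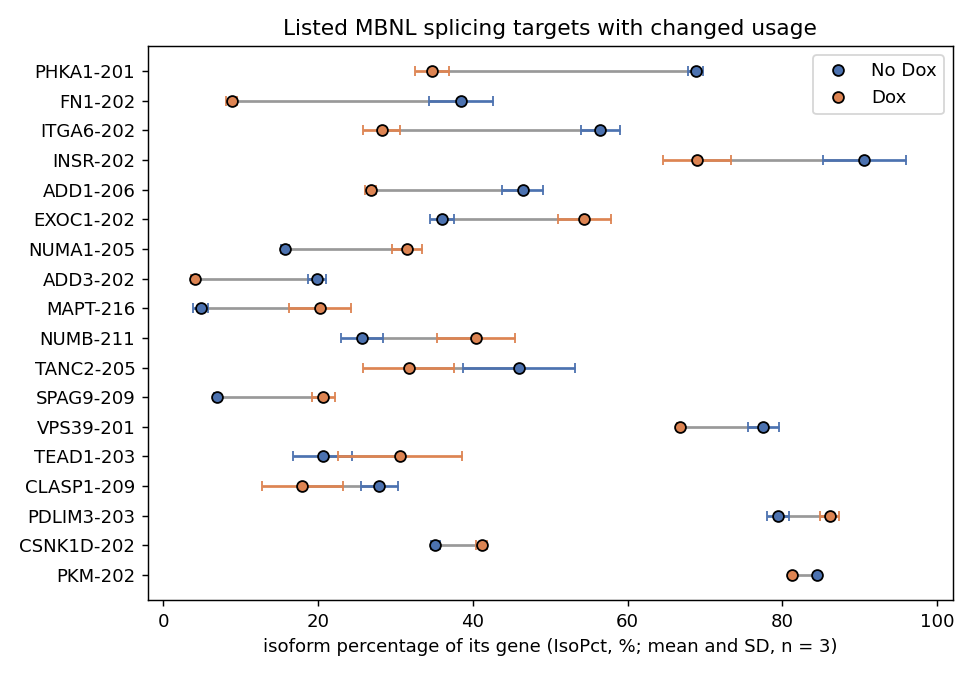
Mean percent of the gene's TPM (IsoPct) in No Dox (blue) and Dox (orange) for the listed MBNL targets with called usage, each shown by its most changed isoform (1 of the 19 is not shown), ordered by the size of the change; error bars are SD (n = 3). PHKA1-201 at the top moves from 68.8 to 34.7%.

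Proteins that work with or against MBNL, or whose genes carry the repeats, formed a second list of 15 genes, all tested. Of these 2 rose, 5 fell and 8 did not pass, 46.7% called against 51.4% of all tested genes, and 3 fell with scaling by library size only. CELF2, of the CELF family that acts against MBNL on several exons, rose from 29.2 ± 1.4 to 42.1 ± 1.4 TPM (log2 fold change 0.43 ± 0.03, SE), and HNRNPH1, a splicing regulator, fell from 808.2 ± 8.9 to 571.0 ± 14.0 TPM (-0.43 ± 0.02). CELF6 (0.99 ± 0.24) and CELF3 (-1.05 ± 0.25) also passed at low levels, 0.17 ± 0.02 to 0.35 ± 0.05 TPM for CELF6 and 0.37 ± 0.04 to 0.26 ± 0.05 TPM for CELF3. STAU1, a double-stranded RNA-binding protein, and CNBP, the gene with the CCUG repeat, fell by 0.13 ± 0.02 and 0.10 ± 0.03 on the log2 scale.

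Usage of 14 genes of this list was tested and 11 were called by diffSplice (78.6%), but 4 by diffSpliceDGE, against 27.5% and 9.91% of all tested genes. In this list diffSplice called 7 without No Dox replicate 3 or without Dox replicate 1. The 4 called by diffSpliceDGE were CELF6, STAU1, HNRNPA1 and HNRNPH1. STAU1-207 went from 9.78 ± 0.28% to 24.8 ± 1.1% of its gene, HNRNPA1-202, of a splicing repressor, from 34.2 ± 0.7% to 45.9 ± 0.3%, and HNRNPH1-221 from 9.19 ± 0.42% to 3.64 ± 0.63%. CELF6-203 went from 0% in every No Dox sample to 45.0 ± 10.4% in Dox, in a gene that was scarcely expressed (0.17 and 0.35 TPM). The isoform passed the filter on low counts only through the Dox samples, where it was high, so the usage calls of CELF6 serve as description only. CELF2 and DMPK, the kinase gene with the CUG repeat, were called at the gene level by diffSplice alone. Their most changed isoforms were CELF2-205 (27.5 ± 0.3% to 21.2 ± 1.2%) and DMPK-201 (9.56 ± 0.41% to 4.38 ± 0.43%).

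Finally, genes with a pattern most like each member were sought over the 6 samples among 11181 genes with a mean of at least 5 TPM, by the root mean square distance of centred log2 CPM. For MBNL1 these were PIK3C2A, WDFY1 and TAOK1, with distances of 0.0062, 0.0086 and 0.0089. For MBNL2 they were TSC1, TMEM255A and DLX4, at 0.018, 0.022 and 0.024, and for MBNL3 PLEKHA5, HNRNPA2B1 and BMS1, at 0.0074, 0.0092 and 0.0093. This likeness is a description over 6 samples that fall into 2 groups.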

How the data were processed

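Per the labels and the study's methods, libraries were made with a stranded mRNA kit, and the authors used cutadapt for trimming, STAR for mapping to GRCh38 and RSEM for isoform quantification. The sources used here give neither versions nor the strand setting. The deposited values are expected counts, TPM, FPKM (not used) and IsoPct, the percent of the gene's TPM per isoform, all estimated by the authors.

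For genes, rounded sums of expected counts were tested with edgeR 4.0.16 (TMM, filterByExpr, glmQLFit and glmQLFTest, R 4.3.3). Isoforms were tested with limma-voom 3.58.1 and usage with diffSplice, whose false call rate can exceed 5% where isoforms of a gene differ in dispersion. DESeq2 1.42.0 and diffSpliceDGE were alternatives. Fits used all 6 samples and all features. Adjusted p-values are Benjamini-Hochberg, with a threshold of 0.05, two-sided. For edgeR, the SE is the absolute log2 fold change over the square root of F. The edgeR gene test, the limma-voom isoform test and diffSplice were tested on simulated data. DESeq2, diffSpliceDGE, the other alternatives and the permutation test were not.

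Named isoforms had a mean IsoPct of at least 5 in a group or passed a test. In each of the lists of targets and of partners, the 6 genes with the largest log2 fold change among those past the gene test, and the 6 with the largest IsoPct change among those past the usage test, were named, except for 1 target that is not reported here. For each member, the 3 genes with the nearest pattern were named. Members and lists, including the marker lists, were chosen with earlier results of these data known. MBNL paralogs share sequence, and how RSEM divided reads between them was not tested. No genome coordinates, exon structures or sequences were used here. Alternatives were other tools, scalings, filters, TPM with a pseudocount of 1 or 0.1, a replicate block and leaving out each sample.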

Additional observations from a re-analysis of the deposited data

How the results depend on the processing

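The gene-level call of MBNL3 (log2 fold change -0.11) was lost with library size scaling only (-0.059; the median of all genes then shifted by 0.05, with 5682 genes higher and 3753 lower), on log2(TPM + 1) without a filter (-0.17, limma-trend adjusted p = 0.053) and with isoforms of at least 4000 bases only (-0.082, edgeR adjusted p = 0.074), and ranged from -0.13 to -0.085 when single samples were left out. The call of MBNL1 was lost with isoforms of at least 4000 bases only (0.049). Listed partners that fell were 3 in place of 5 with library size scaling only; those with changed usage were 4 in place of 11 with diffSpliceDGE and 7 to 9 when single samples were left out (7 without No Dox replicate 3 or Dox replicate 1). As a share of expected counts in place of IsoPct, MBNL1-223 differed by 45.9 percentage points (33.3 by IsoPct), MBNL2-201 by 5.05 (9.70), and the sums over isoforms of at least 4000 bases by -3.06, 3.93 and 1.70 (-9.02, 9.23 and 13.0) for MBNL1, MBNL2 and MBNL3. By construction, expected counts are not divided by length. MBNL2-205 changed sign around 0, at 0.019 with library size only, 0.0091 on log2(TPM + 1) and 0.015 on log2(TPM + 0.1), and between -0.13 and 0.11 when single samples were left out, and never passed. Same-numbered samples did not deviate together (correlations of 0.041, 0.028 and 0.057), so the numbers were not taken as pairs, although each sample correlated best with its own number. With a replicate block, MBNL1, MBNL2 and MBNL3 gene log2 fold changes were 0.10, 0.39 and -0.11, MBNL1-224 was 0.077, MBNL1-210 lost its call (limma-voom adjusted p = 0.073), and MBNL2 passed the usage test (limma diffSplice adjusted p = 0.030), so that 3 in place of 2 members did. It changed no other gene or list count. The causes of these differences were not tested. Depth limits the short MBNL2 and MBNL3 isoforms, whose IsoPct rests on few reads.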

Other observations

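Beyond the genes named by rule, further listed MBNL targets, chosen after their values were seen, changed usage in both tests. NUMA1-205, of a spindle pole protein, went from 15.7 ± 0.5% to 31.5 ± 1.9% of its gene (SD, n = 3), SPAG9-209, of a JNK scaffold, from 6.92 ± 0.33% to 20.7 ± 1.5%, and ADD3-202 from 19.8 ± 1.2% to 4.07 ± 0.46%. VPS39-201, of an endosomal tethering subunit, went from 77.5 ± 2.0% to 66.7 ± 0.4%. NUMA1 and SPAG9 did not pass the edgeR gene test (log2 fold changes of -0.03 and 0.03). EXOC1, NUMB and MAPT were called at the gene level by diffSplice but not by diffSpliceDGE. Their most changed isoforms were EXOC1-202 (36.0 ± 1.5% to 54.4 ± 3.4%), NUMB-211 (25.7 ± 2.7% to 40.4 ± 5.0%) and MAPT-216 (4.81 ± 0.95% to 20.2 ± 4.0%).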
